A study of Homo sapiens with 27 samples.

Results

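Transcripts of the MYC transcription factor network and of the targets of the glucose sensor MondoA were followed in 501mel cells, an established human melanoma line that is high in MITF. The set holds 9 of the 13523 genes measured: MYC, its partner MAX, the antagonists MXI1, MXD4 and MNT, the parallel partner MLX, MLXIP (which encodes MondoA), and the MondoA targets TXNIP and ARRDC4. They were picked out of the table by gene symbol. The members and the gene lists used below were chosen with earlier results of these data known. All 9 passed the filter on low values and were tested. Each library counted the 3′ ends of polyadenylated transcripts, with 3 libraries labelled in each of 9 groups. The unedited line (WT) gave an untreated group, a group starved of amino acids for 12 h in HBSS, a glucose-containing salt solution, and a group given 250 nM Torin, an mTOR inhibitor, over 12 h. Cells edited in TFE3 (TFE3 KO), in TFEB (TFEB KO) or in both of these MITF-related factors (DKO) gave a 12 h control group and a group in the same dose of Torin for each genotype. The knockouts were made with Cas9 and isolated as clones, so genotype and clone cannot be told apart. Nothing in the labels says that the libraries of a group came from separate cultures, and p-values then measure the spread between these libraries, which may be technical.

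MYC binds DNA as a pair with MAX and drives genes of growth and ribosome production, whereas the MXD proteins (MXI1 and MXD4 here) and MNT take MAX away from MYC and bring corepressors to the same sites. MLX pairs with several MXD proteins, with MNT and with MondoA. MondoA moves to the nucleus when glucose 6-phosphate accumulates and switches on the alpha-arrestins TXNIP and ARRDC4, which limit glucose uptake, and TXNIP also binds thioredoxin.

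One column of the table appeared under 2 labels, WT HBSS replicate 3 and WT Torin replicate 1, with identical values in all 13523 genes. It was left out of both groups, which left 2 libraries in each and 25 in all. Depth ran from 4147050 to 6526392 reads per library, so that 3 reads, the limit set by a count of 0 (counting error only), stood for a value of 0.460 to 0.711. The edits were visible in part. TFE3 averaged 24.0 ± 0.285 in untreated WT (SD, n = 3) and 6.30 ± 1.27 in TFE3 KO controls, and TFEB averaged 3.25 ± 0.827 in untreated WT and 1.11 ± 0.485 in TFEB KO controls. In WT HBSS, TFEB was at 29.2 ± 1.65 (n = 2), an increase of 2.85 on the log2(value + 1) scale (limma adjusted p = 4.43e-09). TFEB was also at 0.681 ± 0.764 in TFE3 KO controls, where only TFE3 was edited per the label. All 7 melanocyte markers were present, with summed values of 5120 to 14500, 3 of 5 fibroblast markers, all 3 keratinocyte markers and 3 of 4 immune markers were absent from the table, and the remaining fibroblast and immune markers summed to 0.208 to 6.62 and 29.5 to 74.2.

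Sequences before the start sites of TXNIP, ARRDC4, MXD4 and MNT are shown, 4 of the 5 genes in which a motif searched for was found. The search was made because MYC, MAX, MLX and MondoA, like TFE3, TFEB and MITF, read short E-box sequences. Promoter windows of RefSeq (GRCh38.p14, from 250 bases before to 50 bases after the start) were found for 8 of the 9 genes and not for MYC. Below are the 250 bases before the start, 5′ to 3′ on the strand of the gene. Capitals mark the E-box CACGTG or, in TXNIP, a carbohydrate response element, searched on both strands as CACGNG, any 5 bases, and CACGNG again.
TXNIP, chr1:145996580-145996829, minus strand: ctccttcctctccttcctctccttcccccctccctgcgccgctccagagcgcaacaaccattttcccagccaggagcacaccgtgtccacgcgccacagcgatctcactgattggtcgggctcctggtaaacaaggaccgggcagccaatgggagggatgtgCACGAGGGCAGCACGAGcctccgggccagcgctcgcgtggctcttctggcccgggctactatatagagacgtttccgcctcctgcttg
ARRDC4, chr15:97960453-97960702, plus strand: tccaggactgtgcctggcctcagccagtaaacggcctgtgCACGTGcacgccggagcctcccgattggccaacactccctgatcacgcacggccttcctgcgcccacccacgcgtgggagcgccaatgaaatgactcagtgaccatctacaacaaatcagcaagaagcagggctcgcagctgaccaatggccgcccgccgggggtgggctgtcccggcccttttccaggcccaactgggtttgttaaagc
MXD4, chr4:2262110-2262359, minus strand: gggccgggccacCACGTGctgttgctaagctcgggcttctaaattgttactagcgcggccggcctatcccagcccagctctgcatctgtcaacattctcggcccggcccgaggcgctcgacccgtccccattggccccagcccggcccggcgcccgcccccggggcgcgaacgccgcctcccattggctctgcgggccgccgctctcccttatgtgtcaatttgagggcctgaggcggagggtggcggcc
MNT, chr17:2401061-2401310, minus strand: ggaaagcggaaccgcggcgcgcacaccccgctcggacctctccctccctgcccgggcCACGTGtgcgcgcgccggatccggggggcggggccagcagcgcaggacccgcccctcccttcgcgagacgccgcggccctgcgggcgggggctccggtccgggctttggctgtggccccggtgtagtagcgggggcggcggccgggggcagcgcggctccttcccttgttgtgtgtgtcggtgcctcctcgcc

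The TXNIP element began 88 bases before the start site (position -88). It was the 1 match among the windows of the 8 genes, and 20 of 35116 windows of all genes held the same pattern (0.0570%). An E-box stood at -210 in ARRDC4, -238 in MXD4, -193 in MNT and -50 in MLX. Over all windows, 7.26% held this E-box. The second TXNIP window and the windows of MXI1 (3), MAX (2) and MLXIP (1) held neither pattern, and no window of the 8 genes held the longer form TCACGTGA, an E-box with the flanks that TFEB favours, which 0.980% of all windows held. A match is a description of letters and does not show binding.

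TXNIP is the best known MondoA target (chromosome 1, 145992435 to 145996579, minus strand, hg38 with GENCODE v44). It was higher in starved WT cells, the only ones starved, and in Torin-treated cells of every genotype. Values are normalised read counts, that is, reads scaled to the size of the library (CPM scale). Untreated WT libraries read 45.5, 43.5 and 41.8, WT HBSS libraries 128 and 134, and WT Torin libraries 119 and 121. The treated libraries did not overlap the untreated ones. On the log2(value + 1) scale TXNIP rose by 1.57 (SE 0.093) in HBSS, with a limma adjusted p of 3.69e-19, and by 1.44 (SE 0.093) in Torin, with an adjusted p of 1.17e-17. In bulk RNA, fewer cells of a type and less RNA per cell cannot be told apart.

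The knockouts responded in the same direction. TXNIP read 49.8, 49.2 and 52.6 in TFE3 KO controls against 181, 177 and 166 in Torin. In TFEB KO cells it went from 58.3, 58.1 and 57.7 to 131, 141 and 139. In DKO cells it went from 61.1, 59.3 and 54.9 to 232, 200 and 206, the highest values of the series. No treated library of a knockout overlapped its controls, and the Torin increases were 1.77, 1.23 and 1.85 (log2, SE 0.083 each), with limma adjusted p of 4.38e-23, 8.96e-17 and 1.17e-23.

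ARRDC4, the second MondoA target (chromosome 15, 97960703 to 97973833, plus strand), was scarce, with 3 to 33 reads a library, and moved differently in WT. Untreated WT libraries read 0.986, 0.990 and 1.37 (5 to 7 reads), WT Torin libraries 0.703 and 1.42 (3 and 6 reads), and both WT HBSS libraries 2.30 (10 and 11 reads). The Torin libraries enclosed the untreated range, and the HBSS libraries lay above it. Neither change passed the test in WT, at 0.65 for HBSS (adjusted p = 0.0861, limma) and -0.05 for Torin (adjusted p = 0.910).

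In all 3 knockouts ARRDC4 rose with Torin. TFE3 KO libraries went from 1.41, 0.920 and 0.624 to 3.39, 5.57 and 1.87. TFEB KO libraries went from 1.14, 1.69 and 2.82 to 4.31, 3.77 and 6.11, and DKO libraries from 1.25, 1.57 and 2.04 to 4.62, 6.26 and 4.13. The groups did not overlap in any of the 3 clones, and the increases were 1.15, 1.01 and 1.19 (SE 0.282 each), with limma adjusted p of 0.000579, 0.00350 and 0.000411. Because the pseudocount shrinks a low gene, edgeR's quasi-likelihood test on the recovered reads gave 1.89, 1.32 and 1.66, with adjusted p of 0.000439, 0.00630 and 0.000334. The difference from the WT response was 1.21, 1.07 and 1.25 and did not pass the test in any clone, with limma adjusted p of 0.210, 0.225 and 0.215 (95% intervals 0.356 to 2.06, 0.215 to 1.92 and 0.395 to 2.1). The WT arm of that difference rests on 2 libraries with 9 reads together.

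**Figure D1:**
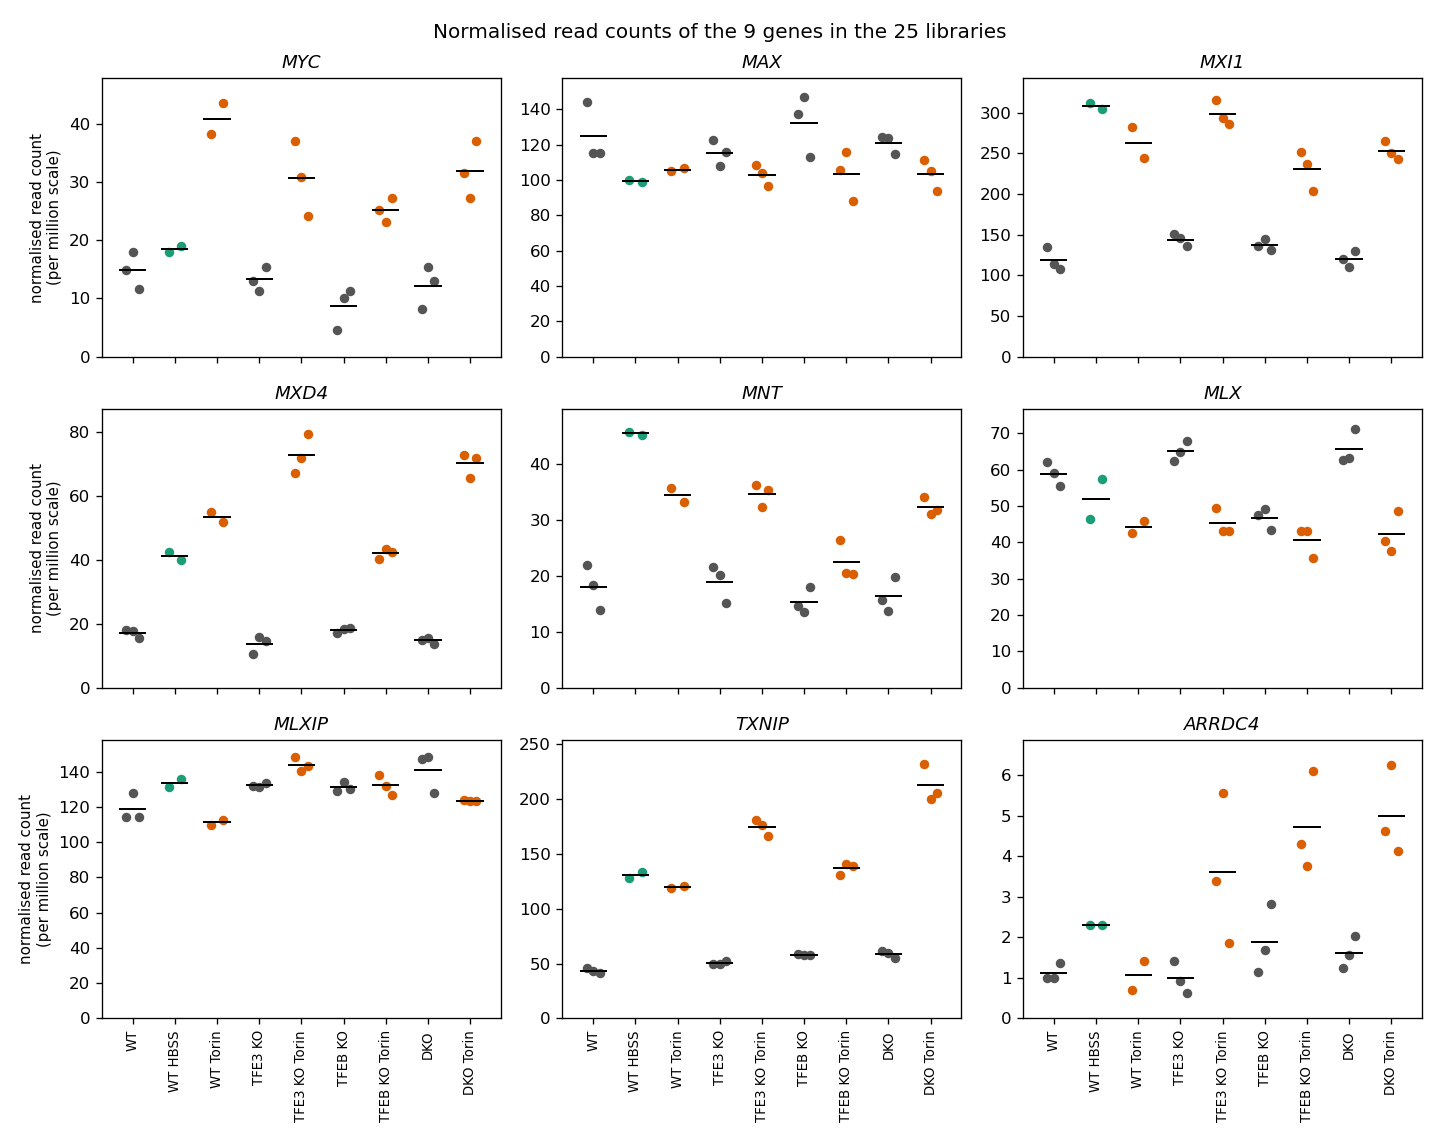
Normalised read count of each of the 9 genes (y axis, CPM scale, from 0) in the 9 groups (x axis). Points are libraries (grey untreated or control, green HBSS, orange Torin) and bars are group means. TXNIP, MXI1, MXD4 and MNT sit higher in the HBSS group and every Torin group than in untreated cells of the same genotype. MYC is high in the Torin groups and 17.9 to 19.0 in HBSS, and MLXIP stays between 110 and 148.

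Of the 9 genes, 5 passed the test (limma adjusted p under 0.05) in HBSS against untreated WT (MXI1, MXD4, MNT and TXNIP higher, MAX lower), where 48.3% of all 13052 genes tested passed. For Torin the counts were 6 of 9 in WT (43.9% of all genes), 7 in TFE3 KO (51.4%), 7 in TFEB KO (38.3%) and 9 in DKO (51.6%). Much of the transcriptome passed, so counts of the set near these shares are no result about it. With an added limit of a 2-fold change, 4, 4, 5, 4 and 5 of the 9 genes passed in these comparisons, against 13.1%, 9.66%, 11.7%, 5.02% and 11.1% of all genes. Because the set was chosen with earlier results of these data known, these counts are no test of it.

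All 3 antagonists of MYC rose in HBSS in WT and in Torin in each of the 4 genotypes. MXD4 (chromosome 4, 2247432 to 2262109, minus strand), a MAX partner linked to the exit from growth, read 18.1, 17.6 and 15.6 in untreated WT, 42.3 and 39.8 in HBSS and 55.1 and 51.7 in Torin. In the libraries used, the 3 groups did not overlap, with Torin above HBSS. The increases were 1.22 in HBSS and 1.59 in Torin (SE 0.141 each; limma adjusted p = 5.20e-10 and 4.66e-13).

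MXD4 reached its highest values in Torin-treated cells without TFE3. TFE3 KO libraries went from 10.4, 15.8 and 14.7 to 67.2, 71.9 and 79.5, and DKO libraries from 15, 15.5 and 13.8 to 72.9, 65.6 and 71.8. TFEB KO libraries went from 17.1, 18.2 and 18.7 to 40.2, 43.2 and 42.6. In the libraries used, the values in Torin were thus highest in TFE3 KO and DKO, intermediate in WT and lowest in TFEB KO. Those levels did not overlap. The unused column, also labelled WT Torin, read 34.276, below all TFEB KO Torin libraries. The increases were 2.35, 2.18 and 1.18 (SE 0.126 each), with limma adjusted p of 7.13e-21, 1.51e-19 and 1.63e-10. Responses were taken against non-treated libraries in WT and against 12 h controls in the knockouts. A handling difference thus cannot be told apart from genotype in any difference in response. Against the WT response, that of TFE3 KO was larger by 0.76 (95% interval 0.383 to 1.14, limma adjusted p = 0.0294), the 1 difference in response among the 9 genes that passed, where 1.06% of all genes did. It missed the threshold in 8 alternatives, among them the fit to only the libraries compared (adjusted p = 0.0711) and the removal of TFE3 KO replicate 1, its lowest library, which left 0.60 (adjusted p = 0.159). In DKO the difference was 0.59 (adjusted p = 0.175) and in TFEB KO -0.41 (adjusted p = 0.325), and there limma, edgeR and DESeq2 each called 0 of the 9 genes, where limma called 0.506% and 1.16% of all genes. At an unadjusted p under 0.05, 3 of the 9 passed in each of these (limma). By that rule 1282 (DKO) and 1771 (TFEB KO) of all 13052 genes passed.

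MXI1 (chromosome 10, 110207605 to 110287365, plus strand), a MAX partner that opposes MYC, read 135, 113 and 108 in untreated WT, 312 and 304 in HBSS and 282 and 244 in Torin. The treated groups stood apart from the untreated libraries, and HBSS lay above Torin in the libraries used. The increases were 1.38 and 1.14 (SE 0.095; limma adjusted p = 6.24e-17 and 5.37e-14), and HBSS against Torin gave 0.23 (adjusted p = 0.0606), which passed when only those 2 groups were fitted (adjusted p = 0.00139). In Torin the knockouts averaged 298 in TFE3 KO, 231 in TFEB KO and 253 in DKO, with increases of 1.05, 0.74 and 1.07 over their controls (adjusted p = 1.12e-14, 9.23e-10 and 6.73e-15). The smaller response of TFEB KO differed from that of WT by -0.40, which did not pass (limma adjusted p = 0.108, 95% interval -0.658 to -0.147).

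MNT (chromosome 17, 2384073 to 2401104, minus strand), which pairs with MAX or MLX and represses MYC sites in growing cells, was highest in HBSS. Untreated WT libraries read 21.9, 18.4 and 13.9, HBSS libraries 45.8 and 45.2 and Torin libraries 35.6 and 33.2. No group overlapped another. MNT rose by 1.31 in HBSS and 0.92 in Torin (SE 0.171; limma adjusted p = 1.04e-08 and 2.00e-05), and the direct comparison of the treatments gave 0.39 (adjusted p = 0.0770, and 0.0154 when only those 2 groups were fitted). Torin added 0.85 in TFE3 KO, 0.52 in TFEB KO and 0.95 in DKO (adjusted p = 6.91e-06, 0.00586 and 1.04e-06). Without TFEB KO Torin replicate 1, its highest library at 26.4, the TFEB KO value was 0.40 and did not pass (adjusted p = 0.0638).

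MYC itself, on the long arm of chromosome 8 (127735434 to 127742951, plus strand), separated the treatments. Its transcript read 15, 18 and 11.7 in untreated WT, 17.9 and 19.0 in HBSS and 38.2 and 43.6 in Torin. The HBSS libraries overlapped the untreated ones and both Torin libraries lay above all others of the series. MYC rose by 1.42 in Torin (SE 0.256, limma adjusted p = 5.13e-05) and its HBSS value was 0.31 (95% interval -0.212 to 0.839, adjusted p = 0.330). Compared directly, HBSS was lower than Torin by 1.10 (log2 -1.10, SE 0.281, adjusted p = 0.00185). That call was lost when the duplicated column was counted as WT Torin (-0.76, adjusted p = 0.0707).

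Torin raised MYC in each knockout as well. TFE3 KO libraries went from 13.1, 11.3 and 15.4 to 37.1, 30.9 and 24.1, TFEB KO libraries from 4.55, 10.1 and 11.3 to 25.2, 23.1 and 27.3, and DKO libraries from 8.26, 15.3 and 13.0 to 31.5, 27.3 and 37.0. Each pair of groups was separate. The increases were 1.14, 1.52 and 1.35 (SE 0.229), with limma adjusted p of 0.000132, 5.19e-06 and 1.54e-05, and none of the 3 differed from the WT response past the test (adjusted p = 0.872, 0.934 and 0.979). The order of the group means ran from 40.9 in WT Torin through 31.9, 30.7 and 25.2 in DKO, TFE3 KO and TFEB KO with Torin to 18.5 in HBSS and 14.9, 13.3, 12.2 and 8.65 in untreated WT and the TFE3 KO, DKO and TFEB KO controls. Neighbours overlapped in this order except between WT Torin and DKO Torin and between TFEB KO Torin and HBSS.

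Because the reads mark transcript ends, the summed level of MXI1, MXD4 and MNT can be set against that of MYC within a library without a length correction. The sum was 138 to 175 in untreated WT, 389 to 400 in HBSS and 329 to 373 in Torin, and its ratio to MYC was 8.30 to 11.8, 20.4 to 22.3 and 7.54 to 9.77. The ratio in HBSS was thus above both other WT groups, whereas in Torin the sum and MYC were both higher. In knockout controls the ratio was 10.7 to 16.0 in TFE3 KO, 14.8 to 36.8 in TFEB KO and 9.10 to 18.3 in DKO. All TFEB KO controls were thus above untreated WT, the highest of them the library with 20 MYC reads. In Torin the knockouts gave 9.38 to 16.6. MXI1 made up most of the sum, with a mean of 119 of 154 in untreated WT and 308 of 395 in HBSS. No test was run on this ratio.

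**Figure D2:**
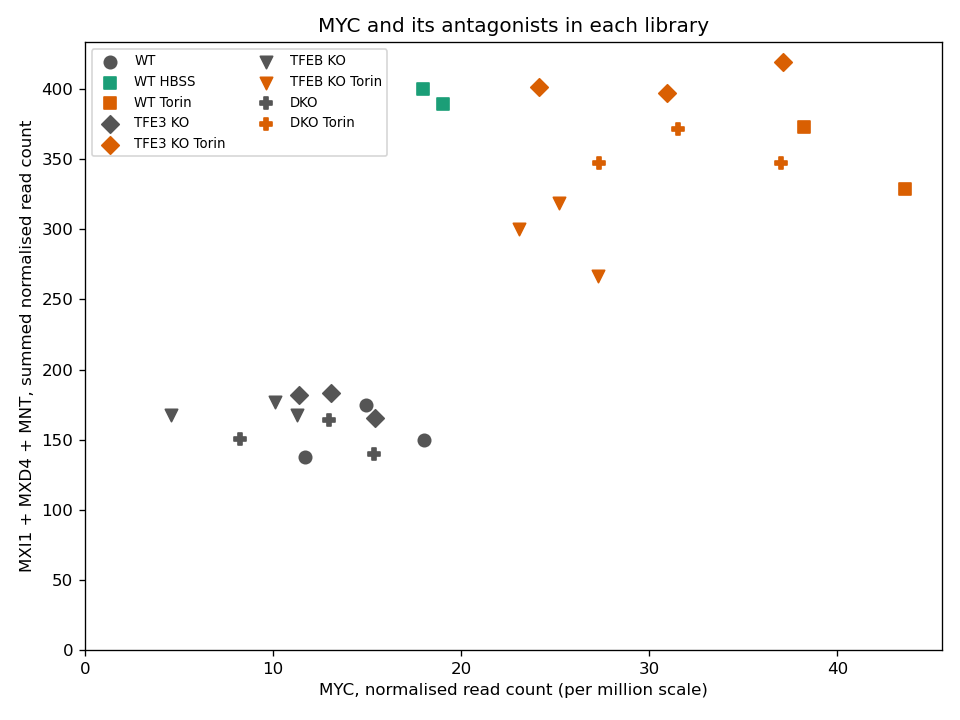
Summed normalised read count of MXI1, MXD4 and MNT (y axis) against that of MYC (x axis), 1 point per library, both from 0 on the CPM scale; colour gives the treatment (grey none, green HBSS, orange Torin) and shape the group. The 2 HBSS points stand at 389 to 400 on the y axis with MYC at 17.9 to 19.0, and all Torin points lie at 23.1 or more on the x axis.

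The shared partners moved little or fell. MAX (chromosome 14, 65006174 to 65102695, minus strand), the obligate partner of MYC, read 144, 115 and 115 in untreated WT and 99.9 and 98.8 in HBSS. All untreated libraries were higher, and MAX fell by 0.32 on the log2 scale (SE 0.11, limma adjusted p = 0.0135), a call lost without WT replicate 1 (-0.21, adjusted p = 0.125) and without either HBSS library. In Torin it fell by 0.36 in TFEB KO (adjusted p = 0.00294, lost without TFEB KO Torin replicate 3 at 0.0598) and by 0.23 in DKO (adjusted p = 0.0485), the latter lost in 11 alternatives including edgeR (adjusted p = 0.114) and DESeq2 (adjusted p = 0.132). The WT and TFE3 KO values were -0.23 and -0.16 (adjusted p = 0.0850 and 0.161).

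MLX (chromosome 17, 42567072 to 42573239, plus strand), the partner through which MondoA binds DNA, read 62.1, 59 and 55.4 in untreated WT, 46.5 and 57.6 in HBSS and 42.7 and 45.7 in Torin. The Torin libraries were below all untreated ones and the HBSS libraries overlapped them. MLX fell with Torin by 0.40 in WT, 0.52 in TFE3 KO and 0.63 in DKO on the log2 scale (limma adjusted p = 0.00629, 9.39e-05 and 3.82e-06). The HBSS value was -0.18 (adjusted p = 0.231) and the TFEB KO value -0.20 (adjusted p = 0.148). The WT call was lost without WT Torin replicate 2 (-0.36, adjusted p = 0.0723).

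MLXIP (chromosome 12, 122078756 to 122147344, plus strand), the transcript of MondoA, was the steadiest of the set, with a highest value 1.35 times the lowest over 25 libraries. It read 114, 128 and 114 in untreated WT, 131 and 136 in HBSS and 110 and 113 in Torin. Neither treatment changed it past the test in WT (0.17 and -0.09, limma adjusted p = 0.101 and 0.399). In DKO cells 147, 148 and 128 in controls became 124, 123 and 123 in Torin, a fall by 0.19 (adjusted p = 0.0371) that was lost in 11 alternatives, including edgeR (adjusted p = 0.106) and DESeq2 (adjusted p = 0.0651).

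**Figure D3:**
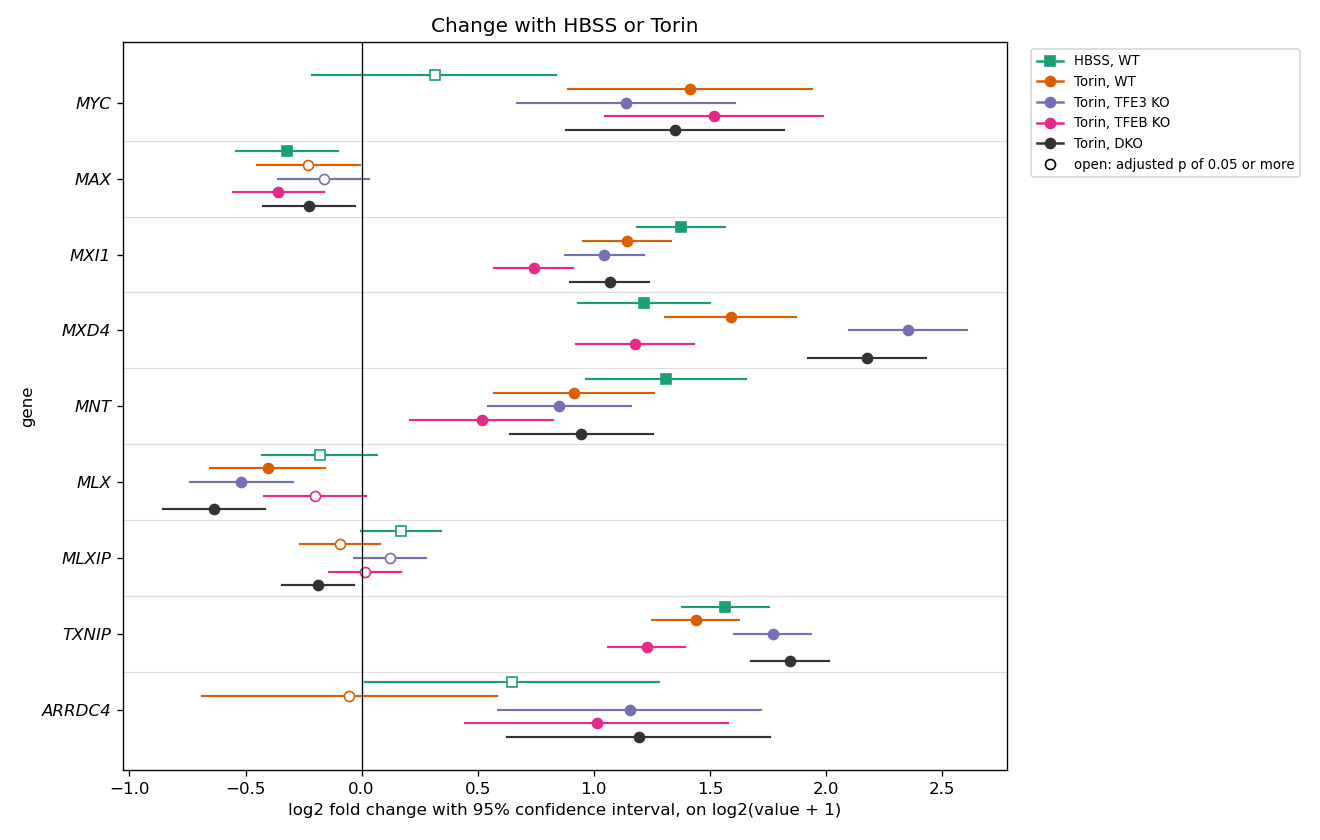
Log2 fold change of each gene (rows) with its 95% confidence interval (x axis, on log2(value + 1)) for HBSS in WT (green squares) and Torin in 4 genotypes (circles); filled symbols had a limma adjusted p under 0.05. TXNIP, MXI1, MXD4 and MNT lie right of 0 in all 5 comparisons, MYC in the 4 Torin comparisons, and the MLX and MAX values are below 0.

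Without drug, few of the 9 genes differed between genotypes, and none reached 2-fold. Counts were 1 in TFE3 KO (9.41% of all genes), 3 in TFEB KO (14.6%) and 2 in DKO (13.1%) against WT, while 1.52%, 1.67% and 1.82% of all genes reached 2-fold. WT libraries were labelled as non-treated and those of the knockouts as 12 h controls, so a handling difference cannot be told apart from genotype. Those WT libraries are also the baseline of the WT responses to HBSS and Torin. TXNIP was higher by 0.41 in TFEB KO and 0.41 in DKO (SE 0.083; limma adjusted p = 0.000511 and 0.000276), with all libraries above those of WT. Its TFE3 KO value was 0.21 (adjusted p = 0.109). MXI1 was higher in TFE3 KO by 0.28 (adjusted p = 0.0242) and MLXIP in DKO by 0.25 (adjusted p = 0.0243), and each of these calls was lost without several single libraries.

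MYC was lower in TFEB KO controls, by 0.78 on the log2 scale (log2 -0.78, SE 0.229, limma adjusted p = 0.0208). TFEB KO replicate 1, with 20 reads, weighed most on it: without that library the value was -0.43 (adjusted p = 0.165). It was also lost without WT replicate 1 (adjusted p = 0.0626) and without WT replicate 2 (-0.64, adjusted p = 0.0959). MLX was lower in the same cells by 0.33 (log2 -0.33, adjusted p = 0.0356), a call lost without WT replicate 1 or 2 and without TFEB KO replicate 1 or 3 (adjusted p of up to 0.135). Set directly against TFEB KO, TFE3 KO controls had more MYC (0.64, adjusted p = 0.0356) and MLX (0.47, adjusted p = 0.000809) and less MXD4 (-0.40, adjusted p = 0.0139), which is 3 of 9 genes where 29.9% of all genes passed, and none at 2-fold, where 4.05% did. The MYC value dropped to 0.28 without TFEB KO replicate 1 (adjusted p = 0.316), and the MXD4 value to -0.23 without TFE3 KO replicate 1 (adjusted p = 0.211). In all, the MYC call was lost in 6 alternatives, edgeR among them (adjusted p = 0.0585). The MXD4 call was lost in 4, among them the fit to only the libraries compared (limma adjusted p = 0.0619).

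In Torin, ARRDC4 was higher than in WT in all 3 knockouts and TXNIP in 2 of them. By limma the counts were 4 of 9 genes in TFE3 KO (9.64% of all genes), 3 in TFEB KO (18% of all genes) and 2 in DKO (12.1%). Only ARRDC4 reached 2-fold in each, where 1.94%, 2.44% and 2.37% of all genes did. TXNIP was higher than in WT Torin by 0.82 in DKO and 0.54 in TFE3 KO (SE 0.093; limma adjusted p = 5.55e-09 and 3.92e-05), and its TFEB KO value was 0.19 (adjusted p = 0.148). ARRDC4 was higher by 1.10, 1.48 and 1.55 in the TFE3, TFEB and double knockouts (SE 0.315; adjusted p = 0.0171, 0.000668 and 0.000502). The lowest of the 9 knockout libraries, at 1.872 (9 reads), was above both WT Torin libraries used (3 and 6 reads). The unused column that also carries the WT Torin label read 1.894, above that lowest library. The TFE3 KO call was lost with DESeq2 (adjusted p = 0.0617), without WT Torin replicate 2 (0.85, adjusted p = 0.239) and without TFE3 KO Torin replicate 2 (0.81, adjusted p = 0.143).

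Further differences in Torin were small. MXD4 was higher in TFE3 KO by 0.44 (limma adjusted p = 0.0376) and MLXIP by 0.37 in TFE3 KO and 0.25 in TFEB KO (adjusted p = 0.00267 and 0.0369). MNT was lower in TFEB KO, at 26.4, 20.4 and 20.4 against 35.6 and 33.2 in WT Torin, a log2 difference of -0.61 (adjusted p = 0.00967). These calls were lost without WT Torin replicate 2, which leaves WT Torin a single library whose spread is taken from the other groups. The values were then 0.49 for MXD4, 0.35 and 0.23 for MLXIP and -0.56 for MNT. Without WT Torin replicate 3, which again leaves a single library, the MXD4 call (0.39) and the TFEB KO call of MLXIP (0.27) were lost too. The MXD4 call was also lost without TFE3 KO Torin replicate 2 or 3 (limma adjusted p = 0.0762 and 0.141). The TFEB KO call of MLXIP was also lost without TFEB KO Torin replicate 1 or 2 (limma adjusted p = 0.123 and 0.0671). With the duplicated column kept as WT Torin, that MLXIP call was lost as well (0.197, limma adjusted p = 0.133). MYC values in Torin were below WT in all knockouts (-0.42, -0.68 and -0.36), but none passed (adjusted p = 0.347, 0.0664 and 0.414). For TFEB KO, edgeR (adjusted p = 0.0159) and DESeq2 (adjusted p = 0.0137) did call MYC lower. MXD4 in DKO was at 0.39 above WT Torin and did not pass in limma (adjusted p = 0.0641), whereas edgeR (0.39, adjusted p = 0.0340), DESeq2 (0.40, adjusted p = 0.0279) and the fit to only the libraries compared (adjusted p = 0.00923) called it higher, as did limma with the duplicated column kept as WT Torin (0.59, adjusted p = 0.0067).

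**Figure D4:**
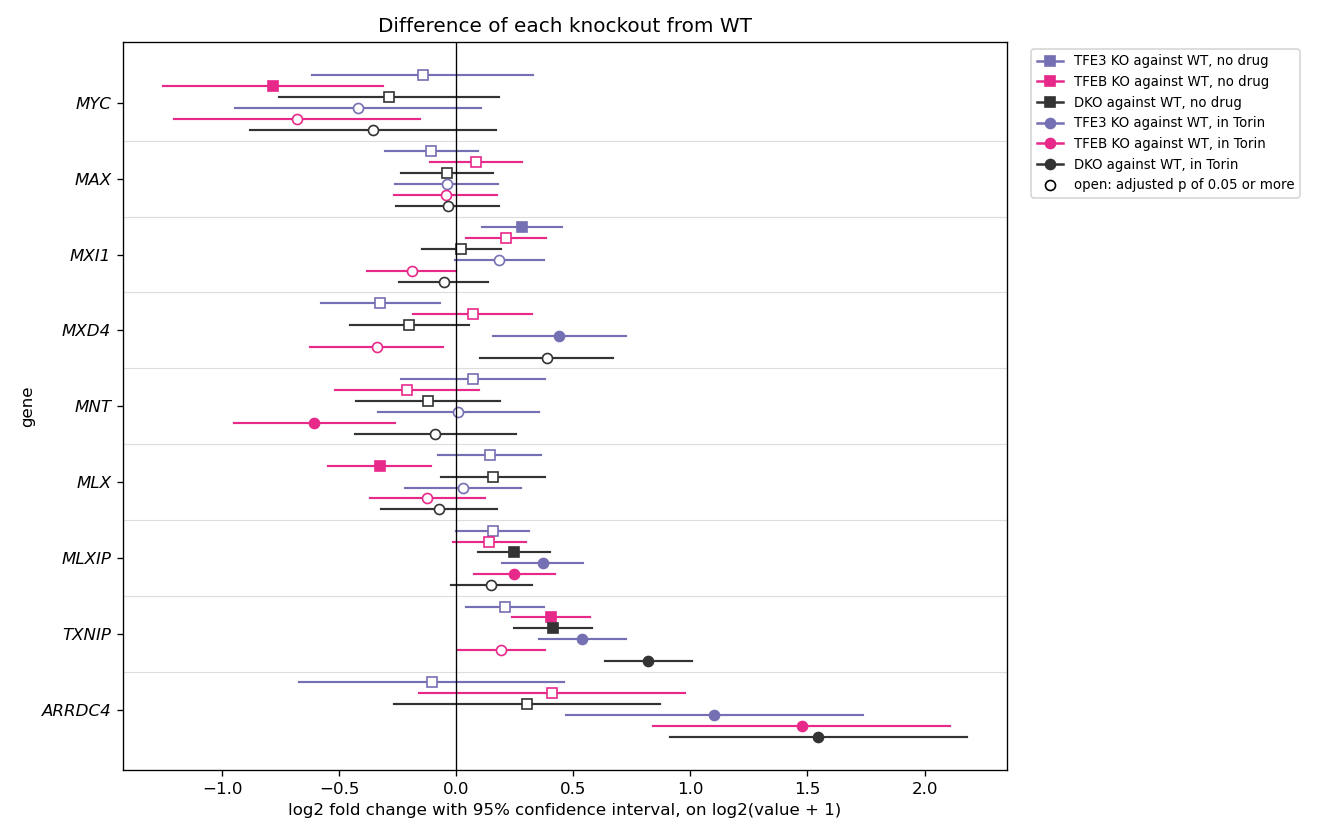
Log2 difference of each gene (rows) between a knockout and WT with its 95% confidence interval (x axis, on log2(value + 1)), without drug (squares) and in Torin (circles); filled symbols had a limma adjusted p under 0.05. The ARRDC4 circles lie at 1.10 to 1.55 while its squares lie at -0.11 to 0.41, and the TXNIP values are all above 0.

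Compared in WT, the treatments differed in 3 of the 9 genes, where 49.2% of all genes differed (16.6% by 2-fold, MYC alone among the set): MYC as above, MXD4 (HBSS lower, log2 -0.37, limma adjusted p = 0.0429) and MLXIP (HBSS higher by 0.26, adjusted p = 0.0183). The MXD4 call was lost in 7 alternatives, with the replicate number as a block among them (adjusted p = 0.0773), and the MLXIP call in 5, edgeR among them (adjusted p = 0.0580). For TXNIP the difference was 0.13 (95% interval -0.076 to 0.332, adjusted p = 0.307). That interval leaves out a difference between HBSS and Torin above 0.332 on this scale.

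Other members of the network were scarcer. Of 6 listed, 5 were measured and tested. In HBSS, 2 rose and 1 fell, 60.0% of the 5 against 48.3% of all genes. The median change was 0.37 against -0.03 for all genes. MXD1, an antagonist induced as cells differentiate, went from 2.89 ± 0.515 in untreated WT (SD, n = 3) to 12.4 ± 3.31 in HBSS (n = 2), an increase of 1.77 (limma adjusted p = 1.04e-06). It averaged 3.18 ± 0.525 in WT Torin, so HBSS and Torin differed by 1.66 (adjusted p = 1.89e-05). MXD3, an antagonist of proliferating cells, followed the same course, from 3.14 ± 0.175 to 8.92 ± 1.37 in HBSS and 2.83 ± 0.311 in Torin (HBSS against untreated 1.26, adjusted p = 0.00212). MYCL, a MYC paralog named after its values were seen, averaged 2.14 ± 0.941 in untreated WT and 0.554 ± 0.192 in HBSS, the level of about 3 reads (log2 -0.98, adjusted p = 0.0220). In WT Torin none of the 5 passed in limma, where 43.9% of all genes did. MXD1 was at 0.11 and MXD3 at -0.11 (limma adjusted p = 0.787 and 0.818). In the knockouts Torin raised 1 of the 5 in TFE3 KO (MXD1, 0.75, limma adjusted p = 0.0124), 3 in TFEB KO and 1 in DKO. The medians were 0.23, 0.57 and 0.38. Of all genes, 51.4%, 38.3% and 51.6% passed in these comparisons. The list thus passed less often than all genes in TFE3 KO and DKO and more often in TFEB KO. The TFEB KO genes were MXD3 (1.2, adjusted p = 0.00153), MGA, a large MAX partner (0.41, adjusted p = 0.0425), and MLXIPL, the paralog of MLXIP that encodes ChREBP (0.94, adjusted p = 0.00691), which also rose in DKO (1.11, adjusted p = 0.000945). MLXIPL averaged 0.243 and 0.226 in the TFEB KO and DKO controls, under the level of 3 reads, and 1.38 and 1.61 in Torin, so its fitted changes depend on the value of 1 added before the logarithm. MXD1 and MXD3 in these cells and MLXIPL were low (group means under 5) and are named after their values were seen.

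The 60 listed MYC target genes, mostly of ribosome production and cell division, gave 59 that were tested. In HBSS 37 fell and 8 rose (76.3% past the test, against 48.3% of all genes), with a median of -0.40 against -0.03 for all genes. In Torin 32 fell and 2 rose in WT (median -0.27), 40 and 2 in TFE3 KO (-0.41), 39 and 1 in TFEB KO (-0.34) and 43 and 2 in DKO (-0.43), with medians of all genes from 0.00 to 0.02. Those Torin counts are 57.6%, 71.2%, 67.8% and 76.3% of the list, where 43.9%, 51.4%, 38.3% and 51.6% of all genes passed. The list was chosen with earlier results of these data known, so these shares are no test of it. DCTPP1, a nucleotide-cleaning enzyme, fell by 1.59 in HBSS and 1.51 in WT Torin (limma adjusted p = 1.54e-16 and 2.03e-15). HSPE1, a mitochondrial chaperonin subunit, fell by 1.34 in both (adjusted p = 1.03e-18 and 2.14e-18). NOP56, a core protein of the nucleolus, fell by 1.62 in HBSS (adjusted p = 5.97e-23), and the replication helicase subunit MCM4 by 1.97 in TFE3 KO with Torin (adjusted p = 6.95e-22). EXOSC5, an RNA exosome subunit singled out after its values were seen, rose in all 4 Torin comparisons by 0.78 to 0.86. In Torin, MYC transcript was thus higher while most of these listed genes were lower.

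**Figure D5:**
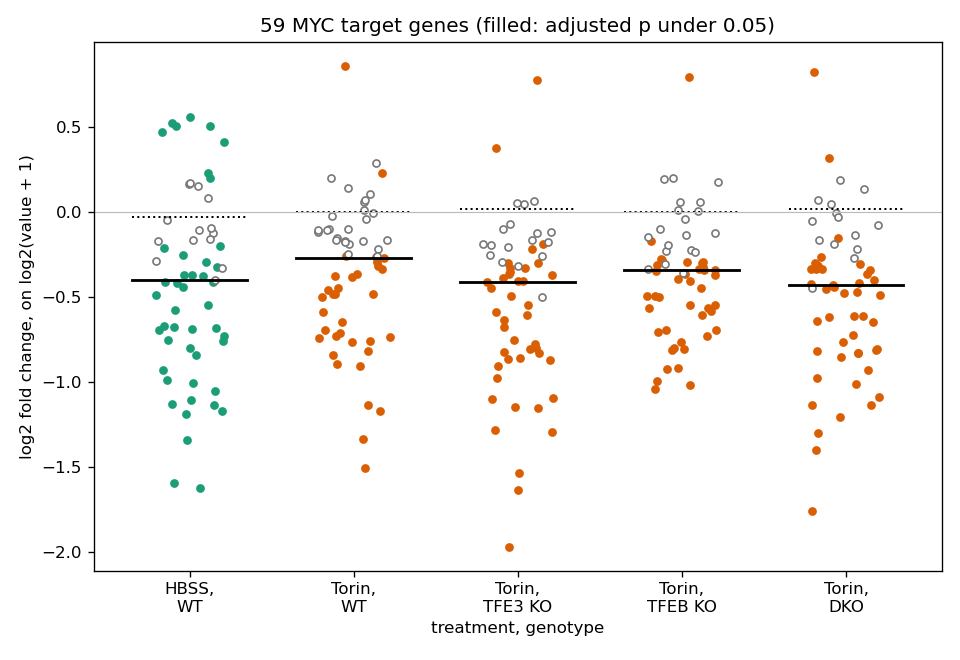
Log2 fold change (y axis, on log2(value + 1)) of the 59 tested MYC target genes, 1 point per gene, in HBSS and in Torin in 4 genotypes (x axis); filled points had a limma adjusted p under 0.05, solid bars are the list medians and dotted bars the medians of all genes. The list medians lie at -0.27 to -0.43 and those of all genes at -0.03 to 0.02.

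Between genotypes without drug the same list differed most between the single knockouts, with 29 of 59 genes higher and 2 lower in TFE3 KO than in TFEB KO, a median of 0.25 against 0.00 for all genes. That is 52.5% of the list, where 29.9% of all genes passed. Against WT, 11 were lower and 0 higher in TFEB KO (median -0.15), 5 higher and 2 lower in TFE3 KO (0.06), and 8 higher and 3 lower in DKO (0.05). These are 18.6%, 11.9% and 18.6% of the list, near the 14.6%, 9.41% and 13.1% of all genes that passed, and are no result about the list.

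Genes of glucose uptake and of the glucose response were measured as neighbours of TXNIP and ARRDC4. Of 17 genes, 5 rose and 2 fell in HBSS, and in Torin 5 rose and 7 fell in WT, 4 and 11 in TFE3 KO, 3 and 10 in TFEB KO and 6 and 8 in DKO. In HBSS the share past the test was 41.2%, under the 48.3% of all genes, and in Torin it was 70.6%, 88.2%, 76.5% and 82.4%, where 43.9%, 51.4%, 38.3% and 51.6% of all genes passed. PFKFB2, which makes the activator of glycolytic phosphofructokinase, rose by 1.74 in HBSS and by 1.0, 1.22, 0.69 and 1.35 in Torin (WT, TFE3 KO, TFEB KO, DKO). PKLR, a pyruvate kinase known as a carbohydrate-responsive gene, rose by 1.42 in HBSS and by 1.13, 0.65, 0.86 and 1.32 in Torin. KLF11, a Krüppel-like factor, rose in HBSS by 0.94 (limma adjusted p = 1.56e-05). In the other direction the glucose transporter SLC2A1 fell by 1.16 in HBSS and by 0.90, 1.32, 0.62 and 0.78 in Torin. Lactate dehydrogenase LDHA fell by 1.36 in WT Torin (adjusted p = 1.78e-18). Hexokinase HK2 fell by 1.24 in WT Torin (adjusted p = 4.23e-11) and was at 0.10 in HBSS (adjusted p = 0.550), and the treatments differed by 1.34 (adjusted p = 5.12e-11).

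The thioredoxin system, to which TXNIP binds, had 1 gene higher and 7 lower of 12 in HBSS (median -0.33) and 1 higher and 5 lower in WT Torin (-0.53), where the medians of all genes were -0.03 and 0.00. The share past the test was 66.7% in HBSS, against 48.3% of all genes, and 6 of 12 in Torin, near the 43.9% of all genes. Thioredoxin reductase TXNRD1 rose by 0.98 in HBSS (limma adjusted p = 2.20e-10) and fell by 0.73 in WT Torin (adjusted p = 3.84e-07). TXNDC17, a thioredoxin-like protein, fell by 0.90 and 0.91 (adjusted p = 1.13e-09 and 1.43e-09). Among the 3 further alpha-arrestins measured, ARRDC3 fell by 1.49 in HBSS (adjusted p = 0.000930, named after its values were seen), and ARRDC2 rose by 0.79 in WT Torin (adjusted p = 0.00750).

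Cofactor lists were read against the same shares of all genes, 48.3% in HBSS and 43.9% in WT Torin. Of 14 genes of the SIN3 and HDAC corepressor, which the MXD proteins and MNT recruit, 6 rose and 3 fell in HBSS (64.3% of the list) and 2 rose and 9 fell in WT Torin (78.6%). The genes that rose in Torin were ARID4A, a subunit of the complex, by 0.98 and the scaffold SIN3B by 0.97 (limma adjusted p = 2.71e-06 and 9.97e-08). Of 12 MYC coactivators, 3 rose and 6 fell in HBSS (75.0%), and 1 rose and 5 fell in WT Torin (6 of 12, near the share of all genes), among them the MYC-binding adaptor WDR5 at -0.74 (adjusted p = 3.44e-05). Of 15 genes of MYC protein turnover, 6 rose and 4 fell in HBSS (66.7%), and 2 rose and 7 fell in WT Torin (60.0%). The kinase PIM1 rose by 1.6 in HBSS and 0.87 in WT Torin (adjusted p = 1.22e-05 and 0.0130). The mitotic kinase AURKA, which shields MYC family proteins from degradation, rose by 1.02 in HBSS and fell by 1.11 in DKO with Torin (adjusted p = 4.75e-13 and 6.85e-16). KIAA1524, the phosphatase inhibitor CIP2A, fell by 0.70 in HBSS and 1.08 in WT Torin (adjusted p = 6.18e-06 and 8.49e-10). RNA levels do not show the amount of MYC protein.

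Over the 25 libraries the genes most like each member were found by Pearson correlation of log2(value + 1) among 9856 genes with a mean of at least 5. These values describe libraries that share treatments and no p is given. TXNIP was most like P2RX7 (r = 0.966), ALDH6A1 (0.965) and NBR1 (0.963). MXD4 was most like P2RX7 (0.975), RHOBTB3 (0.971) and SAT1 (0.962), and TXNIP and MXD4 had an r of 0.960 with each other. MXI1 was most like CCDC28A (0.970), ZFAS1 (0.962) and PTPRM (0.958), and MNT like ETS1 (0.926), MTURN (0.924) and ZFAS1 (0.922). For MYC the closest were DACT1 (0.918), KIZ (0.907) and GPM6A (0.901), and for MLX CDC20 (0.918), HNRNPA2B1 (0.916) and ATP5G3 (0.906). MAX was most like TRAPPC4 (0.889), MCRS1 (0.886) and HPCAL1 (0.867), ARRDC4 like PTGR2 (0.807), FSTL1 (0.803) and BCL11A (0.800), and MLXIP like EIF4ENIF1 (0.697), MORC1 (0.692) and CDC42BPB (0.681). Among the members, MXI1, MXD4, MNT and TXNIP correlated with one another at 0.780 to 0.960, and MLX and MXD4 at -0.757.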

How the data were processed

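Gene expression was measured in 27 labelled 501mel libraries made with a 3′ end kit (QuantSeq Forward). Per the study's methods and the submitters' processing notes, reads were checked with FastQC 0.11.9, trimmed with trim_galore and cutadapt 2.10, aligned to hg38 with STAR 2.7.8a and normalised with edgeR. The read counter, the scaling method and the gene filter are not given in the sources used here. The authors deposited 1 table of signal values, read counts divided by a size factor for each library, and whole reads could be recovered from 100% of values (tolerance 0.01).

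From this table, values were tested as log2(value + 1) with limma 3.58.1 (R 4.3.3; trend and robust options, 1 mean per group over 25 libraries) in 16 comparisons. Genes needed a value of at least 1 in 3 libraries, which kept 13052 and left out 471. p-values were adjusted by Benjamini-Hochberg within a comparison, with a threshold of 0.05. Fold changes of low genes are understated on this scale. On the recovered reads, edgeR 4.0.16 (quasi-likelihood) and DESeq2 1.42.0 were alternatives. Further fits used median-of-ratios scaling, a pseudocount of 0.1, all genes unfiltered, a higher minimum (5), only the libraries compared, the replicate number as a block, the duplicated column put back, and every library dropped in turn. The code was tested on simulated data. The 9 genes were named in every comparison, TFE3 and TFEB as a check of the edits, up to 4 genes of each list per comparison with the largest change past the test and a mean of at least 5, and the 3 genes most correlated with each member. Members and lists were chosen with earlier results of these data known.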

Additional observations from a re-analysis of the deposited data

Results flagged for a closer look

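The Torin response of MXD4 was larger in TFE3 KO than in WT cells by 0.764 on the log2 scale, by a test of the difference itself (limma, adjusted p = 0.0294). The WT baseline was labelled non-treated and the knockout baseline 12 h control, so handling cannot be told apart from genotype. Leaving out single libraries gave 0.60 to 0.87, with adjusted p of up to 0.159.

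The column that appeared under both the WT HBSS and the WT Torin label entered no comparison. Of the 9 genes, 6 were higher in it than in all 3 untreated WT libraries. The share of all genes above those libraries was not computed, so this count is no result about the set. In that column MYC was at 19.694, MXI1 at 314.543, MXD4 at 34.276, MNT at 42.419, TXNIP at 136.535 and ARRDC4 at 1.894 (normalised read counts). In it 12917 genes had a read, against 12895 and 12901 in the WT HBSS libraries used and 13188 and 13181 in those of WT Torin. Which label is right was not tested, and the column was given to neither group.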

How the results depend on the processing

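Of 2518 values of single genes under an alternative, 2337 kept direction and side of the threshold, 100 lost the threshold, 19 gained it and 62 changed sign. The sign changes concern 24 differences, none past the test either way and none over 0.275 in size as reported. With the duplicated column as WT Torin or under both labels, they were ARRDC4 with Torin in WT (0.117), MNT in TFE3 KO against WT with Torin (-0.09), MYC in the TFE3 KO difference in response (0.063), and MYC, MAX and MNT in that of DKO (0.272, -0.028 and -0.068). The MNT value was also -0.008 with median-of-ratios scaling, -0.006 with edgeR and -0.007 with DESeq2, and MAX in the DKO difference was -0.006 with median-of-ratios scaling. The Torin calls of MYC, MXI1, MXD4 and TXNIP were kept under every alternative run in all 4 genotypes. Counts of members past the test moved by over 1.5 times as follows. With the duplicated column as WT Torin, they were 0 (TFE3 KO against WT), 1 (TFEB KO against WT), 1 (DKO against WT) and 1 (TFE3 KO against TFEB KO) without drug, and 0 for HBSS against Torin. With it under both labels, they were 0, 1, 1 and 1, and 1 for HBSS against Torin. With only the libraries compared, they were 1 for DKO against WT without drug, 5 for TFEB KO against WT in Torin, 5 for HBSS against Torin and 0 for the TFE3 KO difference in response. Shares of all genes under these fits are not given here, so the counts describe the calls and are no result about the set. The cause was not tested.

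Same-numbered libraries had correlations of their deviations of -0.192 to 0.143 over 32 pairs of libraries from 13 pairs of groups, so the numbers did not pair them. With the replicate number as a block, the TFEB KO difference in response had 1 member past the test (MXI1, -0.44, adjusted p = 0.0495, limma), and the HBSS against Torin call of MXD4 was lost (-0.34, adjusted p = 0.0773). Under the block, MNT in TFE3 KO against WT with Torin was -0.041, and MAX and MNT in the DKO difference in response were -0.041 and -0.018.

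With each library left out in turn, members past the test ranged from 4 to 6 (HBSS), 5 to 6 (Torin, WT), 7 to 7 (TFE3 KO), 6 to 7 (TFEB KO) and 7 to 9 (DKO). Without drug they ranged from 0 to 1 (TFE3 KO against WT), 1 to 3 (TFEB KO), 1 to 2 (DKO) and 1 to 4 (TFE3 KO against TFEB KO). In Torin they ranged from 1 to 4 (TFE3 KO), 1 to 3 (TFEB KO) and 2 to 2 (DKO), and HBSS against Torin gave 1 to 2. Differences in response gave 0 to 1 (TFE3 KO), 0 to 1 (TFEB KO) and 0 to 0 (DKO). These counts, too, are given without the shares of all genes in the same fits and are no result about the set. Single differences that changed sign when a library was left out ranged as follows. Torin gave -0.307 to 0.201 (ARRDC4, WT) and -0.018 to 0.044 (MLXIP, TFEB KO). Without drug, TFE3 KO against WT gave -0.161 to 0.001 (MAX), -0.095 to 0.218 (MNT) and -0.255 to 0.031 (ARRDC4), and DKO -0.093 to 0.069 (MAX), -0.042 to 0.116 (MXI1) and -0.289 to 0.022 (MNT). In Torin, TFE3 KO against WT gave -0.08 to 0.005 (MAX), -0.041 to 0.058 (MNT) and -0.034 to 0.079 (MLX), TFEB KO -0.134 to 0.064 (MAX), and DKO -0.091 to 0.031 (MAX), -0.159 to 0.052 (MXI1) and -0.179 to 0.003 (MLX). The difference in response gave -0.041 to 0.121 (MAX), -0.204 to 0.007 (MXI1) and -0.209 to 0.104 (MNT) for TFE3 KO, -0.254 to 0.318 (MYC) for TFEB KO, and -0.302 to 0.108 (MYC), -0.105 to 0.07 (MAX), -0.181 to 0.03 (MXI1) and -0.112 to 0.199 (MNT) for DKO. Depth limits ARRDC4, at 3 to 33 reads per library.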
